A study of Rattus norvegicus with 22 samples.

Results

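Chemokine ligands are the small secreted proteins, or in the case of CX3CL1 and CXCL16 membrane-bound proteins that can be shed, that guide leukocytes through tissue. The gene table of rat adipose tissue held 32 genes whose symbol has the form of a CC, CXC, CX3C or XC ligand, out of 24286 genes. They were chosen by name alone: 18 CC ligands, 12 CXC ligands, 1 CX3C ligand (Cx3cl1) and 1 XC ligand (Xcl1). Expression was measured by RNA sequencing of total RNA in 22 libraries of Rattus norvegicus. Visceral fat, from the mesentery, gave 6 libraries labelled T2DM (type 2 diabetes mellitus) and 6 labelled DJB (duodenal-jejunal bypass, an operation that routes food past the upper small intestine). Subcutaneous fat, from the groin, gave 5 T2DM and 5 DJB libraries. All 4 groups carried the label WT for genotype and HFD (a high-fat diet), a time of 4 months in the titles, and a treatment text naming streptozotocin (STZ, a toxin of pancreatic beta cells) at 30 mg/kg. The same treatment text, with the bypass operation in it, stands on the T2DM samples as well, so the group was read from the sample titles. The sources used here give neither strain, sex and age nor the start of the 4 months. Separate rats for the libraries of a group are not stated, and the p-values therefore measure only the spread between these libraries, which may be technical.

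Chemokines bind G protein-coupled receptors that are named for the ligand class, and the receptor decides which cell follows the ligand. CCL2 and CCL7 draw monocytes through CCR2, CXCL1 and CXCL2 draw neutrophils through CXCR2, CXCL9, CXCL10 and CXCL11 draw activated T and NK cells through CXCR3, and CCL19 and CCL21 draw naive lymphocytes and dendritic cells through CCR7. In adipose tissue, CCL2 is best known for the recruitment of monocytes that become macrophages in obesity. The ligands of CXCR3 are textbook targets of interferon gamma, and those of CXCR2 and CCR2 are textbook targets of the transcription factor NF-kB. In bulk tissue a change in the number of cells that make a ligand and a change in the RNA per cell cannot be told apart.

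Promoter sequences are shown for the 2 pairs of ligands on which the comparisons below turn, the CXCR2 ligands Cxcl1 and Cxcl2 and the CXCR3 ligands Cxcl10 and Cxcl11. Each runs 5' to 3' from 250 bases before to 50 bases after the start of the gene, from RefSeq on build GRCr8. Capitals mark every match, on either strand, to an NF-kB type motif (GGG, any 3 bases, TTCC) and to an interferon response type motif (GAAA, any 2 bases, GAAA), and overlapping matches are drawn as 1 stretch. Cxcl1 lies at chr14:17479272-17479571 on the minus strand and Cxcl2 at chr14:17467206-17467505 on the minus strand. Cxcl10 lies at chr14:15988816-15989115 and Cxcl11 at chr14:15973478-15973777, both on the plus strand.
Cxcl1: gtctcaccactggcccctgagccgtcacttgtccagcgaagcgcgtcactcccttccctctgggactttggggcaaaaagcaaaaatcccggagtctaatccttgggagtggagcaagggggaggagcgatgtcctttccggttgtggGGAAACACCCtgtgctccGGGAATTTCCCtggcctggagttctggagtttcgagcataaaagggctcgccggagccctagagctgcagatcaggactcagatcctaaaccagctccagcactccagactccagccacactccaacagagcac
Cxcl2: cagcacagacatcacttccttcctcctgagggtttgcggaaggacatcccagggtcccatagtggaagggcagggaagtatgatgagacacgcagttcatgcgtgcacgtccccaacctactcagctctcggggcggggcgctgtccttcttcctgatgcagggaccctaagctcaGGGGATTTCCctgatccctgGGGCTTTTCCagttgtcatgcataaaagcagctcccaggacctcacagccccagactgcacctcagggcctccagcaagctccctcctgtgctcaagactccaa
Cxcl10: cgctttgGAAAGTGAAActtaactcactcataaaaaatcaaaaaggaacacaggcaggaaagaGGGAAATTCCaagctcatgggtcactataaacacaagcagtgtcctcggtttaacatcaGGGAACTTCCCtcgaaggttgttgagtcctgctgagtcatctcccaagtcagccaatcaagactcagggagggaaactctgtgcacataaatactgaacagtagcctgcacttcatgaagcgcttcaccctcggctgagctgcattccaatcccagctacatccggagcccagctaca
Cxcl11: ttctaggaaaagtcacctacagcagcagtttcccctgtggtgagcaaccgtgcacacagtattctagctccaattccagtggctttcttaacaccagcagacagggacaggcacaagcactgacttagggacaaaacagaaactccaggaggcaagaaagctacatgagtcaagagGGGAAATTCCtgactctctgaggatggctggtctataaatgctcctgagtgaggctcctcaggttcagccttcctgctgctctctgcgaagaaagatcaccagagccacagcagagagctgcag
Cxcl1 and Cxcl2 each held 2 stretches of the NF-kB type motif, Cxcl10 held 2 and Cxcl11 held 1. Cxcl10 also held the interferon response type motif, at position -243. A promoter was matched for 26 of the 32 ligands, and 9 of these 26 (34.6%) held the NF-kB type motif: Ccl6, Ccl7, Ccl9, Ccl20, Cxcl1, Cxcl2, Cxcl6, Cxcl10 and Cxcl11. The same motif stood in 5.37% of all 33469 promoters of the same length. The interferon response type motif stood in 2 of the 26 (7.69%), Cxcl10 and Ccl19, and in 3.92% of all promoters. These are letter matches, not measured binding sites. No promoter was matched for Ccl2, Ccl3, Ccl4, Ccl5, Ccl11 and Cxcl3.

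Total counts ran from 46824314 to 88829000 per library. Adipocyte markers (Adipoq, Plin1, Lep and Fabp4) summed to between 3981 and 41684 CPM (counts scaled to library size by TMM) in visceral fat. They summed to between 1056 and 10457 CPM in subcutaneous fat, except 175 CPM in subcutaneous DJB library 2. That library also carried the highest sum of B cell markers, 1667 CPM, followed by subcutaneous DJB library 4 with 295 CPM and subcutaneous T2DM library 2 with 53.9 CPM, against at most 8.34 CPM elsewhere. Urothelium markers summed to 1178, 1052 and 705 CPM in visceral T2DM libraries 2, 3 and 4, against at most 33.3 CPM in the others. Casein and whey genes took between 1.87% and 18.0% of the counts in subcutaneous T2DM libraries 1 to 4 and DJB libraries 1 and 4. Comparisons were therefore also made without these libraries, and their part in the results was otherwise not tested.

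Compared per length, as FPKM averaged over the 22 libraries, the highest ligands were Cxcl9 at 163 FPKM, Cxcl13 at 157 FPKM, Ccl21 and Ccl6 at 102 FPKM each, and Ccl2 at 90.4 FPKM. Cxcl12, the CXCR4 ligand of stromal cells, followed at 77.3 FPKM, then Cxcl1 at 60.5 FPKM, Ccl7 at 47.2 FPKM, Cxcl14 at 42.7 FPKM and Cxcl16, the CXCR6 ligand, at 33.1 FPKM. Ccl24 and Ccl11, the eosinophil-attracting CCR3 ligands, averaged 28.4 and 12.3 FPKM. Cx3cl1 averaged 14.4 FPKM, Cxcl10 averaged 16.3 FPKM and Ccl5 averaged 13.5 FPKM. Below 10 FPKM lay Ccl19 (8.71 FPKM), Cxcl2 (7.25 FPKM), Ccl3 (4.75 FPKM), Ccl9 (3.84 FPKM), Ccl4 (2.86 FPKM), Ccl22 (1.87 FPKM), Cxcl11 (1.79 FPKM), Ccl28 (1.53 FPKM) and Ccl12 (0.669 FPKM). Ccl12 was tested all the same, since a gene was kept when 5 or more libraries reached 1 FPKM. That filter left 24 ligands for testing, 14 CC, 9 CXC and Cx3cl1. The other 8 were Cxcl17, Ccl17, Xcl1, Ccl20, Cxcl6, Cxcl3, Ccl27 and Ccl25, with means between 0.012 FPKM for Ccl25 and 1.23 FPKM for Cxcl17, and their values are given without a test.

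The order of the ligands differed between the groups. Cxcl9 was the highest ligand in visceral T2DM fat, at 172 ± 70.4 FPKM (SD, n = 6), and in subcutaneous T2DM fat, at 272 ± 249 FPKM (SD, n = 5). In visceral DJB fat Ccl2 came first with 157 ± 158 FPKM (SD, n = 6), and Cxcl1 with 146 ± 200 FPKM second. In subcutaneous DJB fat it was Ccl21, with 269 ± 418 FPKM (SD, n = 5), and Cxcl13 with 259 ± 101 FPKM. These SDs are as large as the means for Ccl2, Cxcl1 and Ccl21, so neighbours in the order do not differ beyond their spread. The spreads of Ccl2, Cxcl1 and Ccl21 rest on 1 or 2 libraries of their DJB group. By CPM, 9 of the 32 ligands had their highest level in visceral DJB library 5 and 9 others in subcutaneous DJB library 2. Both libraries are visible as bright columns in the heat map, which shows FPKM. By FPKM, Cxcl10 was highest in subcutaneous T2DM library 3, at 74.9 FPKM, against 62.6 FPKM in subcutaneous DJB library 2.

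**Figure D1:**
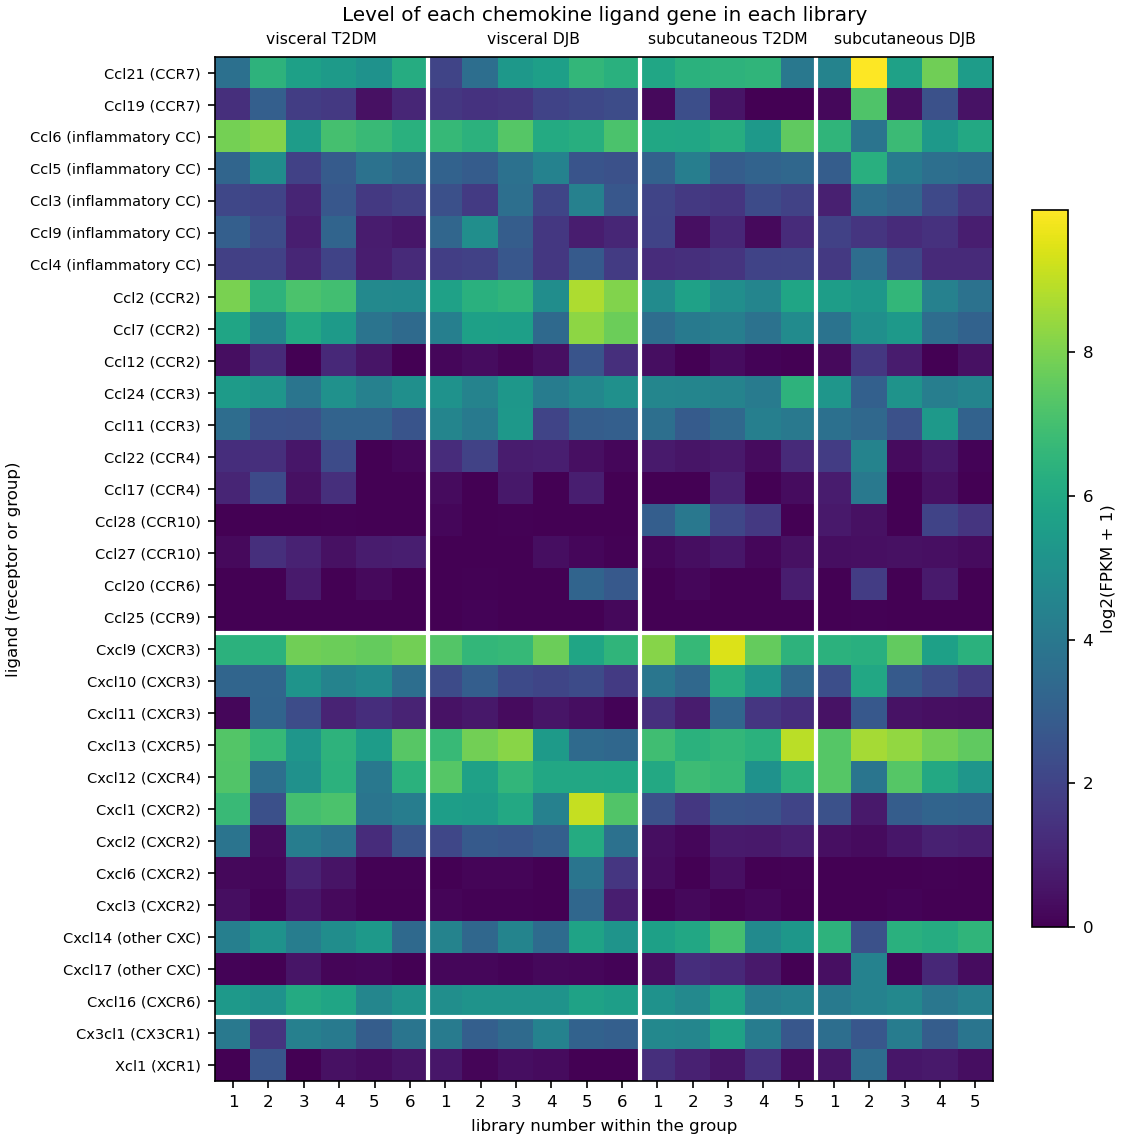
Level of each of the 32 chemokine ligand genes (rows, with the receptor or group of ligands) in each of the 22 libraries (columns, by group), as log2(FPKM + 1). Visceral DJB library 5 is brightest for Cxcl1, Cxcl2, Cxcl3, Cxcl6, Ccl2 and Ccl7, and subcutaneous DJB library 2 for Ccl19, Ccl21, Ccl22, Ccl17 and Cxcl17.

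In visceral fat, the CXCR3 ligands Cxcl10 and Cxcl11 were the ligands with the smallest p-values between bypass and diabetes, and both were lower after bypass, though neither passed the test. No ligand of 24 was called, with 4.69% of all 14019 tested genes called (0.421% higher and 4.27% lower). At an unadjusted p under 0.05 there were 3 ligands, Cxcl11, Cxcl10 and Ccl7, against 22.2% of all genes. DESeq2 called Cxcl10 and Cxcl11, and limma called none. The share of all genes that DESeq2 called is not given here. No ligand had groups that did not overlap (1.01% of all genes). The median log2 difference was 0.07 over the ligands, 0.43 over the 14 CC and -0.25 over the 9 CXC ligands, and -0.03 over all genes.

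Cxcl10 stood at 9.99, 20.5, 30.0, 21.1, 47.5 and 14.1 CPM in visceral T2DM libraries 1 to 6 and at 4.54, 11.6, 4.80, 3.76, 3.83 and 2.39 CPM in visceral DJB libraries 1 to 6. All DJB libraries but library 2 lay below every T2DM library. The log2 difference was -2.21 (SE 0.75, a 4.63-fold lower level), with an adjusted p of 0.0863 by edgeR's quasi-likelihood test. Cxcl11 stood at 0.237, 27.1, 4.73, 1.34, 3.64 and 1.73 CPM in T2DM and at 0.670, 1.30, 0.418, 0.802, 0.399 and 0.113 CPM in DJB. T2DM library 1 lay among the DJB libraries and the other 5 lay above all of them. Its log2 difference was -3.38 (SE 1.04), with an edgeR adjusted p of 0.0618. Without T2DM library 2, which held the high value of 27.1 CPM, it was -1.92 (SE 0.90, edgeR adjusted p = 0.322). Without T2DM libraries 2, 3 and 4, those with urothelium markers, Cxcl11 gave -1.59 (edgeR adjusted p = 0.671) and Cxcl10 gave -2.21 (edgeR adjusted p = 0.383). Without T2DM library 1 both genes were called, at edgeR adjusted p = 0.0497 for Cxcl10 and 0.0235 for Cxcl11, and without T2DM library 4 or 6 Cxcl11 was called. In the fit without subcutaneous DJB libraries 2 and 4, which enter the shared estimate of spread, edgeR called Cxcl10 (adjusted p = 0.0360) and Cxcl11 (adjusted p = 0.0390). Both genes overlap Art3 on the opposite strand. Whether the counting used strand is unstated here, so their counts may hold reads of that gene.

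Cxcl9, the third and by far the most abundant CXCR3 ligand, ran from 131 to 465 CPM with a median of 269.9 CPM in visceral T2DM fat and from 76.2 to 330.2 CPM with a median of 191 CPM in visceral DJB fat. The groups overlapped over most of their range, and the log2 difference was -0.62 (SE 0.44, edgeR adjusted p = 0.437).

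In subcutaneous fat all 3 CXCR3 ligands were again lower after bypass in the fit, and none was called. Cxcl9 stood at 422, 136, 916, 299.5 and 122 CPM in subcutaneous T2DM libraries 1 to 5 and at 114, 125, 248, 96.5 and 115 CPM in DJB libraries 1 to 5. T2DM libraries 1, 3 and 4 lay above all DJB libraries, and T2DM libraries 2 and 5 lay among them. The log2 difference was -1.44 (SE 0.49, edgeR adjusted p = 0.327), and -0.81 (SE 0.44, edgeR adjusted p = 0.686) without T2DM library 3. Cxcl10 stood at 16.1, 9.25, 74.7, 42.6 and 9.99 CPM in T2DM and at 4.38, 75.7, 6.04, 5.75 and 2.40 CPM in DJB. The fit gave -0.69 (SE 0.79, edgeR adjusted p = 0.899). Every DJB library but library 2 lay below all T2DM libraries, and without that library the log2 difference of Cxcl10 was -2.73 (SE 0.64, edgeR adjusted p = 0.145). Cxcl11 showed the same order, with 0.424 to 0.628 CPM in DJB libraries 1, 3, 4 and 5, 9.34 CPM in DJB library 2, and 0.980 to 12.0 CPM in T2DM. Its log2 difference was -0.86 (SE 1.04, edgeR adjusted p = 0.910) with all libraries and -2.97 (SE 1.04, edgeR adjusted p = 0.610) without DJB library 2.

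The 3 high subcutaneous values of Cxcl9, in T2DM libraries 1, 3 and 4, lie in libraries with at least 8.38% casein and whey counts. T2DM library 2, with 9.60% of such counts, had 136 CPM of Cxcl9, and DJB library 3, with 0.0699%, had 248 CPM. Leaving out the subcutaneous libraries with at least 1% of such counts leaves T2DM library 5 alone in its group, assumed in the fit to vary like the other groups. The log2 differences of Cxcl9, Cxcl10 and Cxcl11 in subcutaneous fat were then 0.42, 1.48 and 0.63. The part of mammary content in the subcutaneous differences was otherwise not tested. In visceral fat casein and whey genes took at most 0.0535% of the counts in any library.

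In visceral fat 3 genes that interferon gamma is known to induce, Ido1, Gbp2 and Irf1, were called lower after bypass, though most genes of their lists were not. Of the 12 genes of the interferon response list, 2 were called lower (4.27% of all genes were) and none higher (0.421%), and the median log2 difference of the list was -0.11, against -0.03 over all genes. Those 2 were Ido1, the tryptophan-degrading enzyme, and Gbp2, a guanylate-binding protein. Ido1 had values of 4.82, 18.4, 25.6, 10.7, 76.2 and 32.7 CPM in the visceral T2DM group and lay between 0.399 and 1.35 CPM in the DJB group, with no overlap (log2 difference -5.02, SE 0.93, edgeR adjusted p = 0.0282). Gbp2 ran from 219 to 426 CPM against 88.8 to 125 CPM (log2 difference -1.32, SE 0.31, edgeR adjusted p = 0.0329). Irf1, a transcription factor, was the 1 gene called of 11 tested on the list of inducers and NF-kB feedback genes, whose median was 0.32, with 139 to 271 CPM against 54.3 to 102 CPM (log2 difference -1.23, SE 0.25, edgeR adjusted p = 0.0291). Isg15 and Mx1, known mainly for type I interferon, were among the many genes not called. Cxcl9, a target of interferon gamma, was not called either (edgeR adjusted p = 0.437). Isg15 gave -0.41 (SE 0.58, edgeR adjusted p = 0.720) and Mx1 gave -0.10 (SE 0.78, edgeR adjusted p = 0.955). Of the cell type markers, 5 of 5 tested for epithelium and 4 of 4 for urothelium were also called lower. Among 4 lymphatic endothelium markers 1 was called higher. For Ido1, Gbp2 and Irf1 no fit without the visceral T2DM libraries with urothelium markers was read out. Ifng itself did not exceed 0.745 CPM in any library. Cxcr3, the receptor, gave a log2 difference of -0.75 (SE 0.73, edgeR adjusted p = 0.579) in visceral fat, and T and NK cell markers summed to 23.8 to 168 CPM in T2DM and 64.0 to 151 CPM in DJB.

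**Figure D2:**
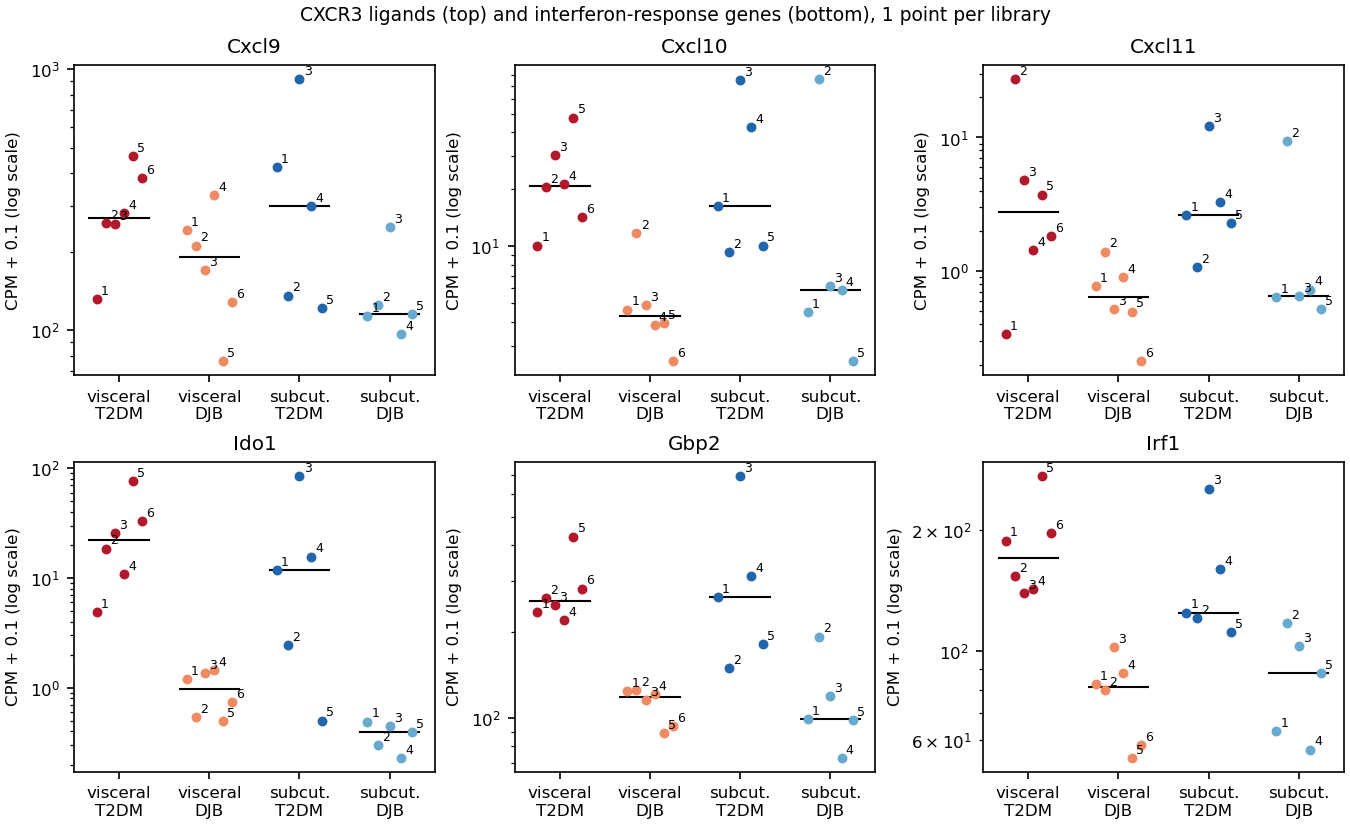
CPM + 0.1 on a log scale of the CXCR3 ligands (top) and of Ido1, Gbp2 and Irf1 (bottom), 1 point per library numbered as in the labels, with the group median as a line. In visceral fat the T2DM and DJB points of Ido1, Gbp2 and Irf1 do not overlap, those of Cxcl10 and Cxcl11 overlap through 1 library, and Cxcl10 and Cxcl11 are high in subcutaneous DJB library 2.

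The CCR2 ligands Ccl2, Ccl7 and Ccl12 were not called between bypass and diabetes. Ccl2 had values of 216, 153, 88.7, 90.3, 33.1 and 23.5 CPM in the visceral T2DM group and 43.9, 97.4, 84.5, 24.7, 315 and 206 CPM in the visceral DJB group. The 2 highest values of Ccl2 in DJB fat are those of libraries 5 and 6, and the others lie within the range of T2DM. Its log2 difference was 0.35 (SE 0.58, edgeR adjusted p = 0.763), and -0.68 without DJB libraries 5 and 6. Ccl7 stood at 50.5, 40.2, 41.0, 31.5, 17.7 and 9.23 CPM against 16.5, 62.0, 45.9, 8.35, 229 and 167 CPM. It gave 1.47 (SE 0.62, edgeR adjusted p = 0.159), and 0.92 (SE 0.59, edgeR adjusted p = 0.420) without DJB library 5. Ccl12, a CCR2 ligand known from mice, reached at most 3.03 CPM, in the same library, and gave a log2 difference of 0.50 (SE 1.22) in visceral fat. In subcutaneous fat Ccl2 ran from 19.0 to 45.3 CPM in T2DM and from 9.86 to 70.1 CPM in DJB (log2 difference 0.21, SE 0.63, edgeR adjusted p = 0.982). Ccl7 gave 0.35 there (SE 0.66, edgeR adjusted p = 0.964).

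Cxcl1, Cxcl3, Cxcl6 and Ccl20 were highest of all libraries in visceral DJB library 5 and next highest in library 6. Cxcl1 reached 443 and 132 CPM in them, against 19.1 to 65.7 CPM in DJB libraries 1 to 4. Cxcl6 reached 19.4 and 2.96 CPM, Cxcl3 11.8 and 1.10 CPM, and Ccl20, the CCR6 ligand, 5.77 and 4.24 CPM. In the other 20 libraries Cxcl6 did not exceed 1.15 CPM, Cxcl3 did not exceed 0.603 CPM and Ccl20 did not exceed 2.06 CPM. Ccl3, an inflammatory ligand of macrophages, was highest in library 5 at 13.1 CPM and stood at 3.89 CPM in library 6. The same libraries held the lowest Cxcl13, 9.96 and 9.55 CPM, the highest Il6, 295 and 167 CPM, and the highest Cd163, a scavenger receptor of macrophages, 451 and 694 CPM. Lymphatic endothelium markers were also highest there, at 623 and 969 CPM, against 92.9 to 591 CPM in all others. The macrophage markers, Cd163 among them, summed to at most 2378 CPM in visceral DJB fat. Their sum reached 3163 CPM in visceral T2DM and 2426 CPM in subcutaneous T2DM fat. Of the ligands whose promoter held the NF-kB type motif, Cxcl1, Cxcl2, Cxcl6, Ccl7 and Ccl20 had their highest CPM in library 5. In libraries 5 and 6 Cxcl10 stood at 3.83 and 2.39 CPM, and Cxcl11 at 0.399 and 0.113 CPM. Ccl9 stood at 0.841 and 1.30 CPM, and Ccl6 at 91.7 and 178 CPM. What sets these libraries apart was not tested.

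The tested ligands of CXCR2 were not called between bypass and diabetes either. Cxcl1 gave a log2 difference of 1.11 (SE 0.72, edgeR adjusted p = 0.379) and Cxcl2 of 1.06 (SE 0.72, edgeR adjusted p = 0.403) in visceral fat. Without DJB libraries 5 and 6 these were -0.30 and -0.26. In subcutaneous fat Cxcl1 gave 0.59 (SE 0.79, edgeR adjusted p = 0.920) and Cxcl2 0.28 (SE 0.81, edgeR adjusted p = 0.982).

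Of the inflammatory CC ligands Ccl3, Ccl4, Ccl5, Ccl6 and Ccl9, Ccl6 was the highest by FPKM. In visceral fat Ccl6 stood at 339, 815, 46.1, 156, 234 and 120 CPM in T2DM and ran from 91.7 to 246 CPM in DJB. Its log2 difference was -0.89 (SE 0.54, edgeR adjusted p = 0.347) in visceral and -0.34 (SE 0.59, edgeR adjusted p = 0.958) in subcutaneous fat. Ccl5, which attracts T cells and monocytes, was highest in subcutaneous DJB library 2 at 45.3 CPM and visceral T2DM library 2 at 33.4 CPM, and did not exceed 11.4 CPM in any other library. Ccl3, Ccl4 and Ccl9 were not called in either depot, the smallest edgeR adjusted p being 0.288 for Ccl3 in visceral fat. The CCR3 ligands Ccl24 and Ccl11 gave log2 differences of -0.36 (SE 0.44) and 1.09 (SE 0.61) in visceral fat, with edgeR adjusted p of 0.668 and 0.308. In subcutaneous fat Ccl24 gave -0.47 (SE 0.48, edgeR adjusted p = 0.888).

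The homeostatic CXC ligands were not called between bypass and diabetes in either depot. Cxcl12 ran from 129 to 860 CPM in visceral T2DM and from 299 to 895 CPM in visceral DJB fat, and its log2 difference was 0.39 (SE 0.53, edgeR adjusted p = 0.716). In subcutaneous fat Cxcl12 gave 0.19 (SE 0.59, edgeR adjusted p = 0.983). Cxcl14, a ligand of skin and stroma with no undisputed receptor, gave -0.44 (SE 0.57, edgeR adjusted p = 0.690) and 0.24 (SE 0.62, edgeR adjusted p = 0.979). Cxcl13, the B cell attractant that binds CXCR5, gave 0.18 (SE 0.75, edgeR adjusted p = 0.914) and 0.69 (SE 0.82, edgeR adjusted p = 0.908). Cxcl16 gave -0.25 (SE 0.22, edgeR adjusted p = 0.550) and -0.56 (SE 0.24, edgeR adjusted p = 0.494). Cx3cl1, the membrane-bound ligand of CX3CR1, gave -0.03 (SE 0.41, edgeR adjusted p = 0.977) in visceral fat. In subcutaneous fat Cx3cl1 stood at 75.4, 62.9, 144, 55.4 and 16.0 CPM in T2DM and at 31.1, 18.4, 47.2, 27.3 and 39.8 CPM in DJB, with T2DM library 5 the lowest of all. The fit gave -1.11 (SE 0.45, edgeR adjusted p = 0.440), and 1.13 without the libraries with casein and whey counts.

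Over all ligands in subcutaneous fat, 0 of 24 were called by edgeR, as were 0% of all genes. At an unadjusted p under 0.05 there were 6, Ccl19, Ccl21 and Ccl22 higher and Cxcl9, Cx3cl1 and Cxcl16 lower after bypass, against 8.98% of all genes. DESeq2 and limma called none. No ligand had groups that did not overlap, against 1.31% of all genes. The median log2 difference was 0.31 over the ligands and 0.05 over all genes.

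The 3 ligands that were higher in subcutaneous fat after bypass at an unadjusted edgeR p under 0.05 rested mostly on DJB library 2. The direction of Ccl19 and Ccl21 rested on DJB library 4 as well. Ccl19 stood at 0.105, 122, 0.243, 4.52 and 0.305 CPM in DJB libraries 1 to 5 and at 0.142, 2.86, 0.300, 0 and 0 CPM in T2DM libraries 1 to 5. Where Ccl19 had 0 counts, the limit that a count of 0 allows (3 counts) is 0.0601 CPM in T2DM library 4 and 0.0447 CPM in library 5. Its log2 difference of 5.24 (SE 1.73, edgeR adjusted p = 0.305) became 0.94 (SE 1.28) without DJB library 2 and -1.63 without DJB libraries 2 and 4. Ccl21 stood at 15.7, 893, 37.4, 241 and 34.9 CPM in DJB and at 48.5, 60.7, 63.9, 78.3 and 11.8 CPM in T2DM. Its log2 difference of 2.21 (SE 0.96, edgeR adjusted p = 0.479) became 0.65 (SE 0.83) and -0.86. In visceral fat Ccl21 gave -0.57 (SE 0.84, edgeR adjusted p = 0.734). Ccl22, a CCR4 ligand made by dendritic cells, stood at 38.8 CPM in DJB library 2 and at most 3.72 CPM in the other subcutaneous libraries. Its log2 difference of 3.07 (SE 1.36, edgeR adjusted p = 0.503) became 0.36 (SE 1.16) without that library, and in visceral fat Ccl22 gave -0.15 (SE 1.15, edgeR adjusted p = 0.957). The untested Ccl17, Xcl1 and Cxcl17 were also highest there, at 4.64, 5.88 and 17.1 CPM.

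Ccr7, the receptor of Ccl19 and Ccl21, and the lymphocyte markers were highest in the same library, as was Cxcr4, the receptor of Cxcl12. Ccr7 stood at 181 CPM in subcutaneous DJB library 2 and 12.5 CPM in library 4, against at most 5.46 CPM elsewhere, and Cxcr4 at 248 and 53.9 CPM, against at most 36.3 CPM. T and NK cell markers summed to 588 CPM in library 2, against at most 193 CPM in any other, while Cxcl14, at 7.75 CPM, and Cxcl12, at 78.7 CPM, were at their lowest of all libraries. In visceral T2DM library 2, which has the next highest Ccl19, at 11.6 CPM, and 153 CPM of Ccl21, B cell markers summed to 8.07 CPM.

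**Figure D3:**
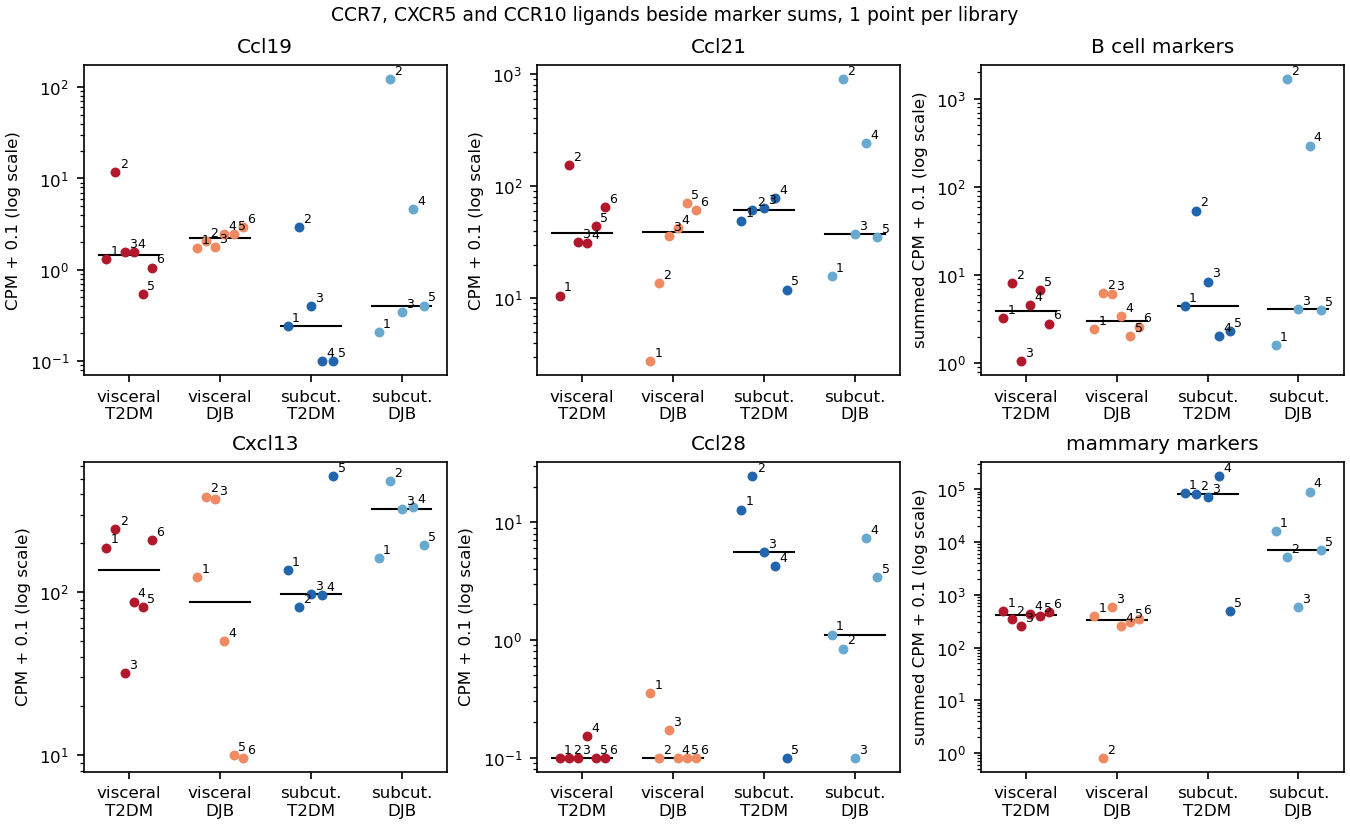
CPM + 0.1 on a log scale of the CCR7 ligands Ccl19 and Ccl21, of Cxcl13 and Ccl28, and of the summed B cell and mammary markers, 1 point per library with the group median as a line. Subcutaneous DJB library 2 is the highest for Ccl19, Ccl21 and B cell markers. Ccl28 is at 0 CPM in subcutaneous T2DM library 5 and DJB library 3, those with the fewest mammary marker counts in that depot.

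Whether bypass acted differently in the 2 depots was tested as an interaction. No ligand of 24 was called by edgeR, DESeq2 or limma, and edgeR called 0% of all genes. At an unadjusted p under 0.05 there were 3, Ccl19, Ccl21 and Ccl5, against 14% of all genes, all 3 with their highest value in subcutaneous DJB library 2. For the CXCR3 ligands the interaction was -1.52 (SE 1.07, edgeR adjusted p = 0.568) for Cxcl10, -2.52 (SE 1.43, edgeR adjusted p = 0.449) for Cxcl11 and 0.83 (SE 0.66, edgeR adjusted p = 0.628) for Cxcl9. Without subcutaneous DJB libraries 2 and 4 the interaction of Cxcl10 was 0.62. The median was 0.08 over the ligands and -0.07 over all genes.

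**Figure D4:**
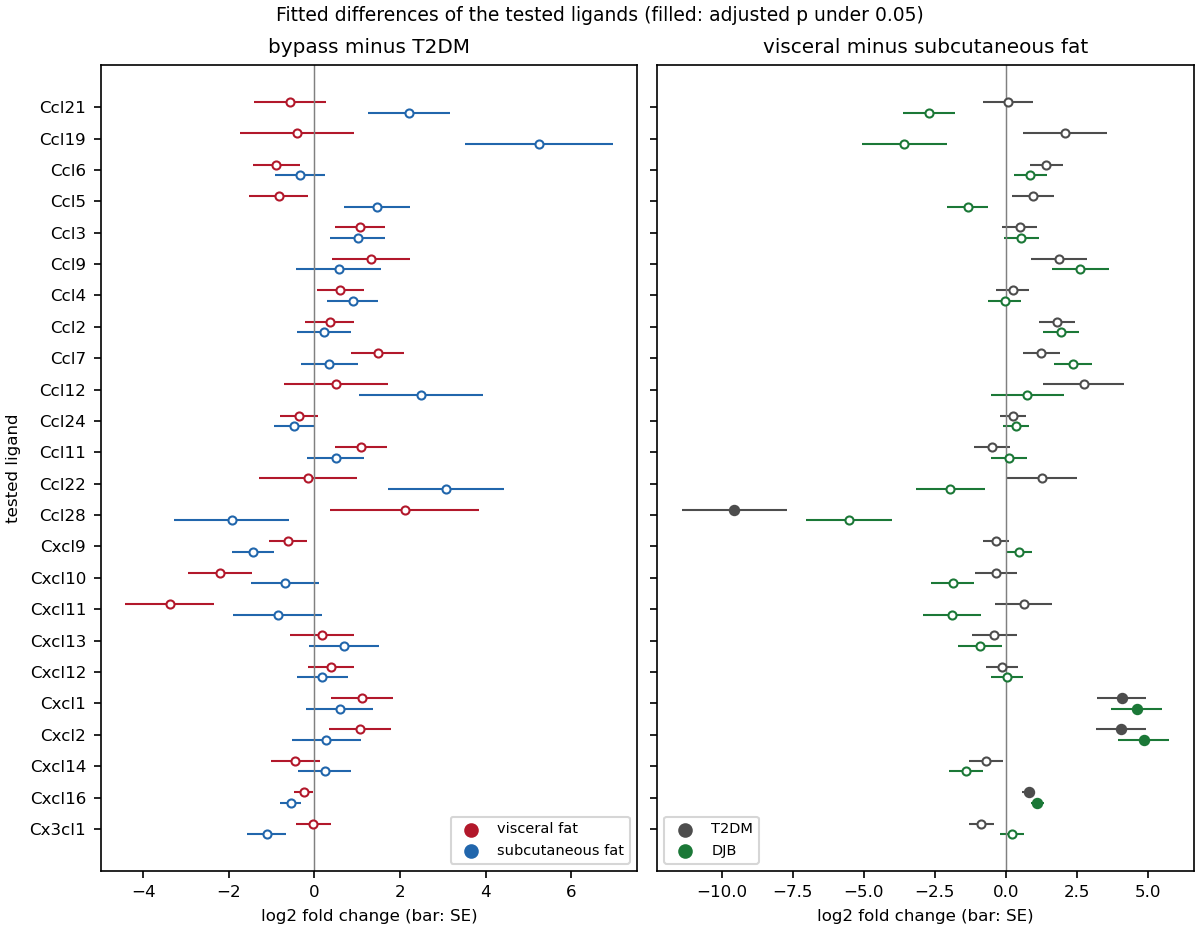
Log2 fold change (point) with its SE (bar) of the 24 tested ligands, DJB minus T2DM on the left and visceral minus subcutaneous fat on the right. Filled points have an edgeR adjusted p under 0.05: Cxcl1, Cxcl2 and Cxcl16 are higher in visceral fat in both conditions, Ccl28 is lower in T2DM, and no point on the left is filled.

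Between depots, the neutrophil attractants Cxcl1 and Cxcl2 and the CXCR6 ligand Cxcl16 were higher in visceral than in subcutaneous fat, in diabetic and in bypassed rats alike, and the epithelial ligand Ccl28 was lower in visceral fat of diabetic rats. In T2DM 4 of 24 ligands were called, 3 higher and 1 lower, against 8.72% of all genes (5.44% higher and 3.28% lower). At an unadjusted p under 0.05 there were 6, against 24.6% of all genes, and 1 ligand, Cxcl1, had groups that did not overlap, against 4.52%. In DJB 3 of 24 were called, all higher, against 1.32% of all genes (0.228% higher and 1.09% lower). At an unadjusted p under 0.05 there were 11, against 14.5%, and 3 had groups that did not overlap, against 1.83%. The median log2 difference over the ligands was 0.55 in T2DM and 0.16 in DJB, and 0.02 and -0.04 over all genes. The 2 comparisons use separate libraries, but the T2DM and DJB groups of a depot entered 1 fit.

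Cxcl1 stood at 104, 8.63, 88.8, 115, 20.2 and 17.8 CPM in visceral T2DM libraries 1 to 6 and at 4.25, 1.68, 4.23, 4.67 and 2.73 CPM in subcutaneous T2DM libraries 1 to 5. The lowest visceral library, library 2, lay above the highest subcutaneous one. Cxcl1 was 16.9-fold higher in visceral fat, a log2 difference of 4.07 (SE 0.87, edgeR adjusted p = 0.00699). In DJB it stood at 45.5, 61.6, 65.7, 19.1, 443 and 132 CPM in visceral and at 3.84, 0.585, 5.48, 9.88 and 6.72 CPM in subcutaneous fat, again with no overlap (24.2-fold, log2 difference 4.59, SE 0.89, edgeR adjusted p = 0.0217). Without visceral DJB libraries 5 and 6 the log2 difference was 3.17 (SE 0.74), not called at an edgeR adjusted p of 0.178.

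Cxcl2 followed the same order at a lower level. In T2DM it stood at 14.8, 0.533, 14.3, 12.4, 2.38 and 6.17 CPM in visceral and at 0.331, 0.123, 0.600, 0.661 and 0.819 CPM in subcutaneous fat, with visceral library 2 inside the subcutaneous range. The fit gave 4.06 (SE 0.88, 16.7-fold, edgeR adjusted p = 0.00734). In DJB it ran from 3.69 to 65.5 CPM in visceral and from 0.266 to 1.23 CPM in subcutaneous fat, with no overlap (log2 difference 4.84, SE 0.91, 28.6-fold, edgeR adjusted p = 0.0204). In T2DM Cxcl1 and Cxcl2 were called whichever library was left out, at edgeR adjusted p up to 0.0249 and 0.0256. In DJB both calls were lost without visceral library 5 (edgeR adjusted p = 0.0707 and 0.0656), visceral library 6 (0.0676 and 0.0512) or subcutaneous library 4 (0.0569 for each). They were also lost with limma on log2(FPKM + 1), at adjusted p of 0.0718 for Cxcl1 and 0.0965 for Cxcl2, and in an edgeR fit of the DJB groups alone, at adjusted p of 0.0755 and 0.0735. Without the subcutaneous libraries with at least 1% casein and whey counts, the log2 differences were 4.44 and 3.36 in T2DM, against 1 remaining subcutaneous library, and 4.88 and 5.05 in DJB, none of them called.

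Cxcl16, which binds CXCR6 on T cells and also serves as a scavenger receptor, had the smallest of the called depot differences. In T2DM it stood at 73.9, 119, 87.3, 85.2, 62.1 and 64.0 CPM in visceral and at 56.0, 37.0, 78.0, 31.6 and 33.0 CPM in subcutaneous fat. Subcutaneous library 3 lay among the visceral libraries. The log2 difference was 0.80 (SE 0.24, 1.74-fold, edgeR adjusted p = 0.0392). In DJB it stood at 51.9, 85.5, 64.5, 60.0, 79.0 and 73.5 CPM in visceral and at 24.1, 37.1, 36.6, 31.8 and 30.5 CPM in subcutaneous fat, with no overlap (log2 difference 1.11, SE 0.24, 2.16-fold, edgeR adjusted p = 0.0278). The T2DM call ended without visceral library 2 or 4 or subcutaneous library 1, 2, 4 or 5 (edgeR adjusted p 0.0512 to 0.119). Of 25 alternatives run, leave-one-out included, 16 ended it, and scaling by library totals alone gave a log2 difference of 0.54 (edgeR adjusted p = 0.347). The DJB call ended in 16 of 25 alternatives as well, among them those without any 1 visceral library or subcutaneous library 4, at edgeR adjusted p up to 0.0811. The gene overlaps Zmynd15 on the opposite strand, so its counts may hold reads of that gene.

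Few other genes of these roles were called between depots. Il6, an NF-kB target like the CXCR2 ligands, was called higher in visceral fat in T2DM (log2 difference 4.77, SE 1.05, edgeR adjusted p = 0.00832) and in DJB (5.47, SE 1.08, edgeR adjusted p = 0.0249). Il1b was called in T2DM (2.24, SE 0.65, edgeR adjusted p = 0.0363), with visceral libraries at 10.7 to 84.9 CPM and subcutaneous ones at 4.32 to 8.76 CPM. Of 11 tested genes of the list of inducers and NF-kB feedback genes, these 2 were called higher in T2DM, where 5.44% of all genes were, and Il6 alone in DJB, where 0.228% were, and none lower. Of 9 tested chemokine receptors, Cxcr2 was called higher in visceral fat in T2DM (2.66, SE 0.78, edgeR adjusted p = 0.0365), and none in DJB. In that T2DM comparison 1 of 4 tested neutrophil markers was called, Mpo, the neutrophil peroxidase, at 4.12 (SE 0.94, edgeR adjusted p = 0.0102). Neutrophil markers summed to 71.1 to 286 CPM in visceral T2DM and 7.33 to 25.6 CPM in subcutaneous T2DM fat, and to 46.9 to 197 CPM and 8.20 to 97.7 CPM in DJB. Wt1, a marker of the mesothelium that lines the abdominal cavity, did not exceed 0.319 CPM in subcutaneous fat and ran from 2.65 to 37.2 CPM in visceral fat. Of 4 urothelium markers, high in visceral T2DM libraries 2, 3 and 4, 4 were called higher in visceral fat in T2DM. Without those 3 libraries the log2 differences in T2DM were 3.76 for Cxcl1 (edgeR adjusted p = 0.0249), 3.94 for Cxcl2 (edgeR adjusted p = 0.0226) and 0.50 for Cxcl16 (edgeR adjusted p = 0.320). Mitochondrial genes took 11.3% to 45.4% of the counts in visceral and 5.57% to 16.5% in subcutaneous T2DM fat, and 15.9% to 48.9% and 11.9% to 34.2% in DJB. Adipocyte markers summed to at least 6461 CPM in visceral and at most 3007 CPM in subcutaneous T2DM fat, and 2 of 4, Adipoq and Fabp4, were called higher in visceral fat in T2DM and 0 in DJB. The part of these cell types and of RNA composition in the depot differences was not tested.

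**Figure D5:**
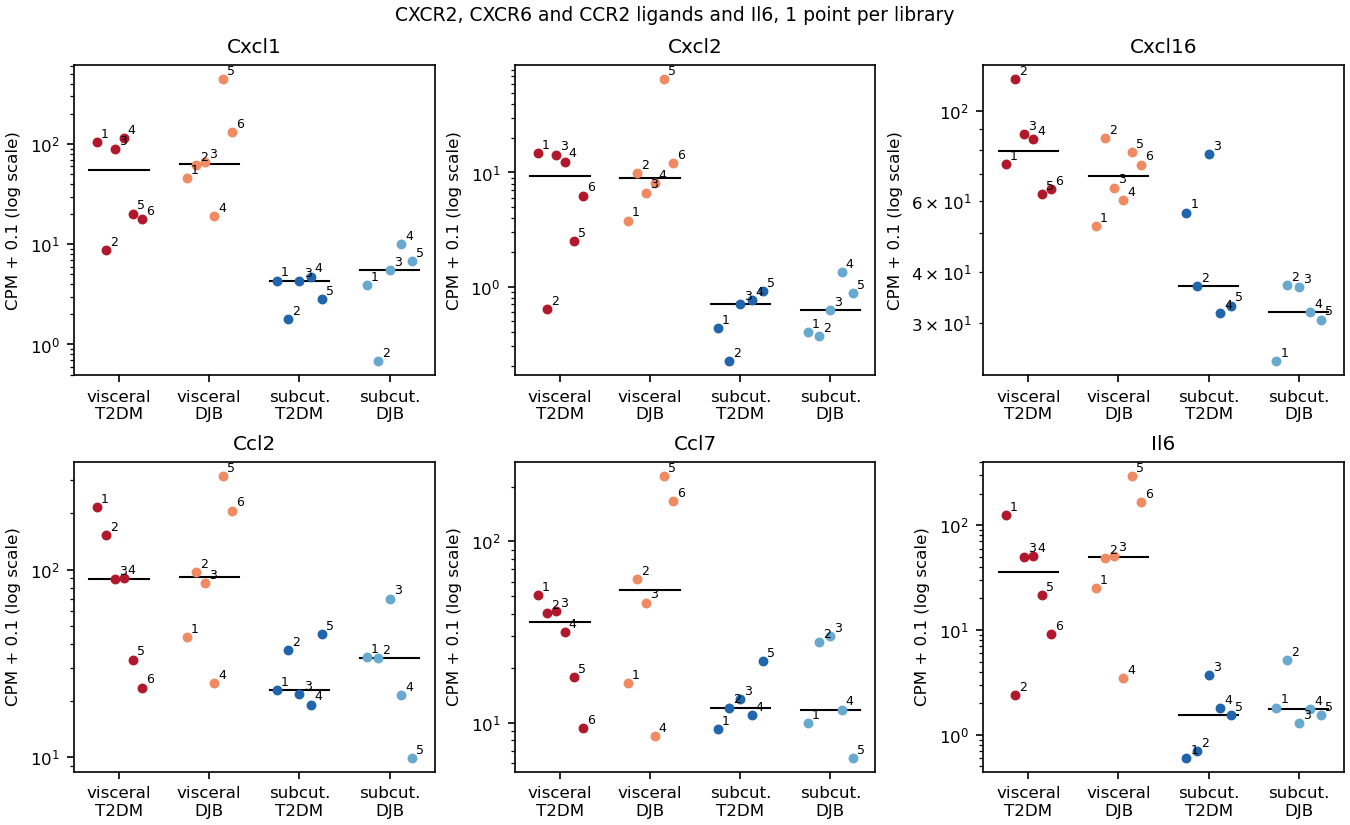
CPM + 0.1 on a log scale of the CXCR2 ligands Cxcl1 and Cxcl2, the CXCR6 ligand Cxcl16, the CCR2 ligands Ccl2 and Ccl7 and the cytokine Il6, 1 point per library with the group median as a line. The visceral points of Cxcl1 lie above all subcutaneous points of the same condition, and visceral DJB libraries 5 and 6 are the highest for Ccl7 and Il6.

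Ccl2 and Ccl7 leaned the same way without being called. Ccl2 gave a log2 difference of 1.79 (SE 0.63, edgeR adjusted p = 0.0813) in T2DM and 1.93 (SE 0.64, edgeR adjusted p = 0.127) in DJB. Ccl7 gave 1.24 (SE 0.65, edgeR adjusted p = 0.249) and 2.36 (SE 0.68, edgeR adjusted p = 0.0798). DESeq2 called both ligands in DJB, and its share of all genes called is not given here. Ccl6 gave 1.41 (SE 0.58, edgeR adjusted p = 0.134) in T2DM. Ccl9, a relative of Ccl6 known in rodents, gave 2.62 (SE 1.02, edgeR adjusted p = 0.219) in DJB. In the other direction Cxcl14 gave -1.40 (SE 0.60, edgeR adjusted p = 0.270) in DJB, where Ccl21, Ccl19 and Cxcl10 were also lower in visceral fat at an unadjusted p under 0.05. Without subcutaneous DJB library 2 alone, Ccl19 and Cxcl10 changed sign, to 0.70 and 0.15, and Ccl21 gave -1.16. Without both library 2 and library 4 the log2 differences were 0.35 for Ccl21, 3.27 for Ccl19 and 0.28 for Cxcl10.

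Ccl28, which mucosal and mammary epithelium makes and which binds CCR10, was detected in some subcutaneous libraries and hardly in visceral fat. It stood at 12.7, 24.5, 5.45, 4.13 and 0 CPM in subcutaneous T2DM libraries 1 to 5 and at 1.01, 0.745, 0, 7.24 and 3.30 CPM in subcutaneous DJB libraries. In visceral T2DM fat it had 4 counts in library 4 and 0 in the other 5, where the limit that a count of 0 allows lies between 0.0369 and 0.0737 CPM. The fitted log2 difference between the depots in T2DM was -9.55 (SE 1.85, edgeR adjusted p = 0.00419) and rests on those few visceral counts, so its size is uncertain. In DJB it was -5.51 (SE 1.52, edgeR adjusted p = 0.0684). Between bypass and diabetes Ccl28 gave 2.11 (SE 1.74, edgeR adjusted p = 0.505) in visceral and -1.93 (SE 1.35, edgeR adjusted p = 0.782) in subcutaneous fat. The 2 subcutaneous libraries with 0 counts of Ccl28, T2DM library 5 and DJB library 3, were also the 2 with the fewest casein and whey counts in that depot, at 0.0542% and 0.0699%. Among the others Ccl28 was higher at the larger shares, without a strict order. T2DM libraries 1 to 4 and DJB library 4, at 7.36% to 18.0%, held 4.13 to 24.5 CPM. DJB libraries 1, 2 and 5, at 0.498% to 1.87%, held 0.745 to 3.30 CPM. The part of mammary content in the Ccl28 values was not tested. Within these sets the order differed. T2DM library 4, at 18.0%, had 4.13 CPM, below the 24.5 CPM of T2DM library 2 at 9.60%. DJB library 5, at 0.765%, had 3.30 CPM, above the 1.01 CPM of DJB library 1 at 1.87%. Of the 4 mammary markers, 4 were called lower in visceral fat in T2DM, against 3.28% of all genes. In DJB 3 were called lower, against 1.09%. Leaving out the subcutaneous libraries with at least 1% casein and whey counts keeps T2DM library 5 alone, which had 0 counts of Ccl28. The depots could therefore not be compared in that way in T2DM. In DJB, subcutaneous libraries 2, 3 and 5 remain, and the value of that fit is not given here. Ccl27, the other CCR10 ligand, did not exceed 2.71 CPM in any library, and Ccl25, the CCR9 ligand, was counted in 3 libraries at up to 0.226 CPM.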

How the data were processed

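Per the file headers, the authors deposited read counts and FPKM values per gene for all 22 libraries. Trimming with cutadapt 1.9, FastQC and the build mRatBN7.2 are named in the submitters' processing notes. For the aligner, counter, strand setting and annotation, the sources used here give nothing. The deposited counts were tested, and the authors' FPKM served to compare levels between genes and to filter: 14019 genes that reached 1 FPKM in 5 or more libraries were kept. Counts were scaled by TMM (factors 0.543 to 1.39) and fitted with edgeR 4.0.16 in R 4.3.3 (quasi-likelihood, 1 mean per group over all 22 libraries), with Benjamini-Hochberg adjustment over all tested genes and a threshold of 0.05, for 5 comparisons. Called means past that threshold. Alternatives were other scalings, no filter, DESeq2 1.42.0, limma 3.58.1 on log2(FPKM + 1) and log2(FPKM + 0.1), the groups compared alone, a replicate block, and left-out libraries.

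The members and gene lists were chosen with earlier results of these data known. Full statistics were given for called ligands, the 10 highest by mean FPKM and the highest tested of each receptor group, in both bypass comparisons and, between depots, at an unadjusted p under 0.05. They were also given for called receptors, inducers and interferon response genes. Of called cell type markers, most were given by count only. Not described were called markers between depots of B cells (2 of 3 lower in visceral fat in DJB), lymphatic endothelium (1 of 4 lower in T2DM) and epithelium (1 of 5 higher in T2DM). Depth was 46824314 to 88829000 counts per library, and limits from a count of 0 (3 counts) cover counting error only. No 2 libraries held identical values. Promoters were matched by symbol to RefSeq on GRCr8.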

Additional observations from a re-analysis of the deposited data

Results flagged for a closer look

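In 12 of 96 groups of values (12.5%), 1 library lay far from the others of its group on the log2(CPM + 0.5) scale, where chance alone gives about 1 in 20. In subcutaneous DJB library 2 Cxcl10 stood at 75.7 CPM against 2.40 to 6.04 CPM in the others, Cxcl11 at 9.34 CPM against 0.424 to 0.628 CPM, and Cxcl14 was low at 7.75 CPM against 114 to 146 CPM. In subcutaneous DJB library 3 Cxcl9 stood at 248 CPM against 96.5 to 125 CPM. In subcutaneous T2DM library 5, the library of its group with few casein and whey counts, Ccl24 stood at 122 CPM against 26.5 to 34.4 CPM and Cxcl13 at 518 CPM against 81.3 to 137 CPM, while Ccl21 was low at 11.8 CPM against 48.5 to 78.3 CPM. In subcutaneous T2DM library 2 Ccl19 stood at 2.86 CPM against 0 to 0.300 CPM. In visceral T2DM library 2 Ccl19 stood at 11.6 CPM against 0.442 to 1.46 CPM, and Cx3cl1 was low at 12.4 CPM against 33.6 to 50.3 CPM. Ccl28 was at 0.251 CPM in visceral DJB library 1 against 0 to 0.0727 CPM, and at 0.0537 CPM in visceral T2DM library 4 against 0 CPM, both levels of a few counts.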

How the results depend on the processing

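Over the named log2 differences of ligands and all alternatives, 1486 values kept their direction and their side of the threshold, 57 lost a call, 14 gained one, and 90 changed sign. Single libraries were left out of the groups compared. The counts of called ligands for bypass in subcutaneous fat and for the interaction were 0 under all settings run. For bypass in visceral fat DESeq2 called 2 ligands, as did the fit without subcutaneous DJB libraries 2 and 4, and leaving out 1 library at a time gave 0 to 2. Between depots in T2DM, where 4 were called, limma on log2(FPKM + 1) called 2, leaving out the subcutaneous libraries with at least 1% casein and whey counts left 0, and leaving out 1 library at a time gave 3 to 5. Between depots in DJB, where 3 were called, DESeq2 called 6. The count was 0 with limma on either scale, with the groups compared alone, without visceral DJB libraries 5 and 6, without subcutaneous DJB libraries 2 and 4, without visceral DJB libraries 5 and 6 and subcutaneous DJB library 2, and without the casein and whey libraries. Leaving out 1 library at a time gave 0 to 4. The share of all genes called under each alternative is not given here. A larger count of ligands may therefore go with more genes called in all. The labels do not tie replicate numbers to animals, and the correlation of same-numbered libraries exceeded 0.1 in 2 of 6, 1 of 5, 1 of 5 and 1 of 5 pairs. With the replicate block, 3 ligands were called between depots in T2DM, 0 in DJB, and 0 for bypass and the interaction. The causes were not tested. The alternatives without subcutaneous DJB libraries 2 and 4, without visceral DJB libraries 5 and 6 and subcutaneous DJB library 2, and without the casein and whey libraries were chosen after seeing the data. Ligands of low counts such as Ccl28, Ccl12 and Cxcl11 are limited by depth.

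Signs turned in a limma fit on log2(FPKM + 1), with log2 differences of Cx3cl1 0.056 and Cxcl13 -0.60 for bypass in visceral fat, of Ccl2 -0.058, Cxcl14 -0.15 and Cxcl12 -0.25 for bypass in subcutaneous fat. Signs turned in a limma fit on log2(FPKM + 0.1), with log2 differences of Cx3cl1 0.10, Ccl22 0.20 and Cxcl13 -0.63 for bypass in visceral fat, of Ccl2 -0.066, Cxcl14 -0.18 and Cxcl12 -0.26 for bypass in subcutaneous fat, of Ccl19 0.36 for depot in DJB. Signs turned in a fit with the replicate number as a block, with log2 differences of Cxcl13 -0.16 for bypass in visceral fat, of Cxcl12 -0.21 for bypass in subcutaneous fat, of Ccl19 0.19 for depot in DJB. Signs turned without visceral T2DM libraries 2, 3 and 4, with log2 differences of Cxcl12 -0.072, Ccl22 1.21, Cxcl13 -0.0012 and Cxcl16 0.051 for bypass in visceral fat. Signs turned without visceral T2DM libraries 2 and 5, with log2 differences of Cxcl14 0.51, Cxcl12 -0.021 and Ccl21 0.10 for bypass in visceral fat. Signs turned without visceral DJB libraries 5 and 6, with log2 differences of Cxcl2 -0.26, Cxcl1 -0.30, Ccl2 -0.68, Cx3cl1 0.27, Ccl22 0.37 and Ccl12 -1.71 for bypass in visceral fat, of Cxcl2 -0.57 for the interaction. Signs turned without subcutaneous DJB libraries 2 and 4, with log2 differences of Ccl19 -1.63, Ccl6 0.0011 and Ccl21 -0.86 for bypass in subcutaneous fat, of Ccl19 1.17, Cxcl10 0.62 and Ccl21 0.25 for the interaction, of Ccl19 3.27, Cxcl10 0.28 and Ccl21 0.35 for depot in DJB. Signs turned without visceral DJB libraries 5 and 6 and subcutaneous DJB library 2, with log2 differences of Cxcl2 -0.27, Cxcl1 -0.30, Ccl2 -0.68, Cx3cl1 0.27, Ccl22 0.37 and Ccl12 -1.71 for bypass in visceral fat, of Cxcl2 -0.76 and Cxcl10 0.75 for the interaction, of Ccl19 0.56 and Cxcl10 0.41 for depot in DJB. Signs turned without subcutaneous libraries with at least 1% casein and whey counts, with log2 differences of Ccl7 -0.036, Cxcl2 -0.64, Ccl2 -0.26, Cxcl12 -0.32, Cx3cl1 1.13, Cxcl9 0.42, Cxcl10 1.48, Cxcl11 0.63, Cxcl13 -0.63, Cxcl16 0.074 and Ccl28 9.47 for bypass in subcutaneous fat, of Cxcl9 -1.03 for the interaction, of Ccl28 2.68 for depot in T2DM. The values of Ccl28 in that fit rest on subcutaneous T2DM library 5 alone, which had 0 counts of Ccl28. Leaving out 1 library at a time, the log2 difference changed sign for some genes, with these ranges. For bypass in visceral fat they were Cxcl2 from -0.074 to 1.27, Ccl2 from -0.14 to 0.68, Cx3cl1 from -0.29 to 0.10, Ccl22 from -1.03 to 0.29, Cxcl13 from -0.29 to 0.44, Ccl12 from -0.73 to 1.37 and Ccl21 from -0.85 to 0.024. For the interaction they were Cxcl2 from -0.36 to 1.14 and Cxcl10 from -2.17 to 0.48. For bypass in subcutaneous fat they were Cxcl2 from -0.12 to 0.53, Ccl2 from -0.24 to 0.45, Cxcl12 from -0.10 to 0.43, Cxcl11 from -2.97 to 0.048, Ccl6 from -0.57 to 0.18 and Ccl24 from -0.63 to 0.23. For depot in DJB they were Ccl19 from -3.94 to 0.70 and Cxcl10 from -2.36 to 0.15.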

Other observations

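The atypical receptors, which bind chemokines without attracting cells, were not part of the comparisons above. Of 4 tested members, 0 were called by edgeR in any of the 5 comparisons. Ackr3, which takes up Cxcl12, ranged from 16.2 CPM in subcutaneous DJB library 2 to 553 CPM in subcutaneous T2DM library 5. Summed over the 32 ligands, the FPKM ran from 594 to 2017 per library, highest in subcutaneous DJB library 2. The CC ligands made up 17.4% of that sum in subcutaneous T2DM library 3, where Cxcl9 alone held 47.2%, and 69.2% in subcutaneous DJB library 2, where Ccl21 held 49.7%.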
